A study of Arabidopsis thaliana with 9 samples.

Results

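The PRA1 genes of Arabidopsis thaliana were followed through 8 d of growth on an auxin and a cytokinin. Members were the probe sets that the array annotation pairs with exactly 1 gene whose symbol starts with PRA1. This gave 7 of the 10343 probe sets tested, and 7 of 5482 named genes, 1 probe set each for PRA1.A1, PRA1.B4, PRA1.B6, PRA1.E, PRA1.F1, PRA1.G2 and PRA1.H. The reference gene table lists 19 PRA1 genes, 16 by symbol and 3 by synonym only. A further 2 probe sets, for PRA7 and PRA8, carry PRA1.F2 and PRA1.F3 as synonyms and are described separately, and 2 that pair a PRA1 gene with another gene are not described. PRA1 genes without a probe set in the table were not analysed here.

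PRA1 stands for prenylated Rab acceptor 1. These are small proteins of the endoplasmic reticulum, Golgi and endosome membranes that bind Rab GTPases, the lipid-anchored switches that give each transport vesicle its identity. From work in yeast and mammals, PRA1 proteins are known to help release a Rab from its soluble carrier, GDP dissociation inhibitor, and so to place it on a membrane. In plants the family has expanded into subfamilies named by letter, and callus growth, with its new cell plates and walls, relies on the secretory route these proteins belong to.

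RNA came from whole wild-type seedlings, on 3 Affymetrix arrays for each of 3 time points. The 0 d seedlings were 4 days old and untreated. The 2 d and 8 d seedlings had been moved at that age to Murashige and Skoog medium with 2.26 µM 2,4-D, a synthetic auxin, and 0.46 µM kinetin, a cytokinin, a mixture that induces callus. The series was made to set these hormones beside FPX, another inducer of callus, whose arrays were not analysed here. Treated seedlings were also older and had been moved, with no untreated ones of their age analysed here, so hormone, age and transfer cannot be told apart. The labels do not say whether the 3 arrays of a time point come from separate cultures, and p-values reflect no more than the spread among them, possibly technical.

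Probe set signals are linear, and their median per array ran from 445 to 546. Changes are differences in mean log2 signal with the standard error (SE) from limma. A probe set was called, and is said to have risen or fallen, at an adjusted p under 0.05 with a log2 change of at least 1. An F test over the 3 time points had an unadjusted p under 0.05 for 10323 of the 10343 probe sets, all 7 PRA1 probe sets included, so the table looks to have been selected on these arrays and adjusted p-values are too small. Over all probe sets the median change was 0.19 at 2 d and 0.40 at 8 d against 0 d, so values after centring each array on its median are given beside the calls. As bulk samples of seedlings, the arrays cannot tell fewer cells of a type from less RNA per cell. Of 11 photosynthetic tissue markers, all measured, the summed signal was 118808 to 134541 at 0 d, 101353 to 123125 at 2 d and 42518 to 57583 at 8 d. Their single changes at 2 d against 0 d ran from -1.16 for PORB, the one marker of these called then, to -0.05 for PSAE-1. Summed over 5 markers of dividing cells, the signal was 1089 to 1272 at 0 d, 2294 to 3005 at 2 d and 3031 to 3458 at 8 d. The single measured root hair marker of 4, EXPA7, had 410 to 606 at 0 d, 61.6 to 131 at 2 d and 62.7 to 112 at 8 d. The part of these marker changes in the PRA1 results was not tested.

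The profiles differed between members. PRA1.B6 fell at 2 d and at 8 d against 0 d, PRA1.F1 fell at 8 d against both earlier times, and PRA1.H rose at 8 d against 0 d. PRA1.A1, PRA1.B4, PRA1.E and PRA1.G2 were lower than at 0 d at both later times, by less than the fold threshold. The arrays of each gene are shown in the plot of signal by array.

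**Figure D1:**
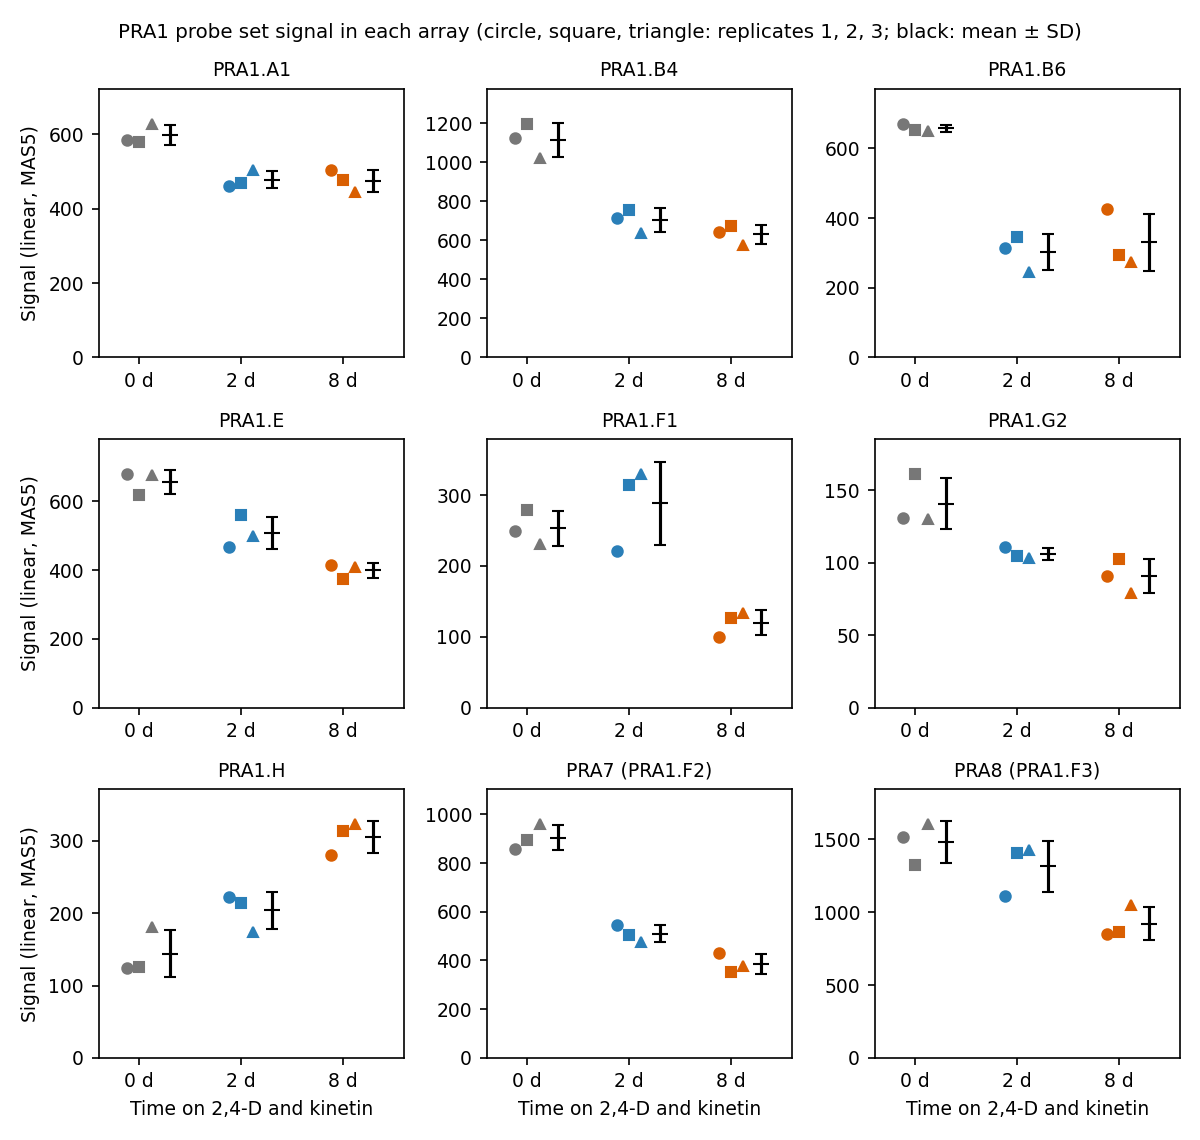
Linear probe set signal (y axis, from 0, a separate scale per gene) at 0 d, 2 d and 8 d on 2,4-D and kinetin for the 7 PRA1 probe sets and for PRA7 and PRA8. Symbols are single arrays and black bars are the mean ± SD of 3 arrays; PRA1.B6 was at 650 to 670 at 0 d and at 425 or less on every later array, and the 8 d arrays of PRA1.F1, at 134 or less, lay below all its others.

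PRA1.B6 (AT5G07110) had the largest fall at 2 d among the 7. In Arabidopsis its product is known as a brake on transport from the endoplasmic reticulum to the Golgi. Its signal was 670, 652 and 650 in the 0 d arrays, 315, 344 and 245 in the 2 d arrays, and 425, 293 and 275 in the 8 d arrays. Both treated groups lay wholly below 0 d and overlapped each other, and 8 d replicate 1 was the highest treated array. The change was -1.14 at 2 d against 0 d (SE 0.18, limma adjusted p = 0.00042), to 45.4% of the 0 d level, and -1.02 at 8 d against 0 d (SE 0.18, limma adjusted p = 0.00031). Between 8 d and 2 d it was 0.12 (95% interval -0.27 to 0.51). Both calls sit near the fold threshold. The 2 d call ended without 2 d replicate 3 (-0.996), and the 8 d call ended without 8 d replicate 2 (-0.94) or 8 d replicate 3 (-0.90). After median centring the changes were -1.31 and -1.29, and after centring on hybridisation controls both were -0.94 and neither was called. Only 6 hybridisation controls are in the table, which looks to have been selected on these arrays. Whether they were steady over time was not tested, so here and below this scaling may not be neutral. Adding 16 to each signal ended the 8 d call (-0.98), and adding 64 ended both (-0.99 at 2 d and -0.89 at 8 d).

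PRA1.B4 (AT2G38360), of the same subfamily, was also lower at both later times, by less. Its signal was 1125, 1195 and 1024 in the 0 d arrays, 713, 756 and 636 in the 2 d arrays, and 640, 672 and 577 in the 8 d arrays. Every treated array lay below every 0 d array, and the 2 d and 8 d arrays overlapped. The change was -0.67 at 2 d (SE 0.11, limma adjusted p = 0.00066) and -0.82 at 8 d (SE 0.11, limma adjusted p = 5.7e-05) against 0 d, both short of the fold threshold. It was called at 8 d after median centring, at -1.10. From 2 d to 8 d the change was -0.16 (95% interval -0.40 to 0.09). At 2 d the fall of PRA1.B6 exceeded the change of PRA1.B4 by 0.47 (SE 0.21), more than 2 SE, and at 8 d by 0.19 (SE 0.21), less than 2 SE. These SEs treat the probe sets as independent, though both were read on the same arrays.

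PRA1.F1 (AT1G17700) had a late profile. Its signal was 249, 279 and 231 in the 0 d arrays, 221, 314 and 329 in the 2 d arrays, and 99.997, 126 and 134 in the 8 d arrays. The 2 d arrays spanned the 0 d range, with replicate 1 below it and the other two above, and all 8 d arrays lay below both groups. At 2 d against 0 d the change was 0.17 (95% interval -0.21 to 0.55, limma adjusted p = 0.40), and it was 0.35 without 2 d replicate 1. At 8 d against 2 d it fell by 1.25 (SE 0.17, limma adjusted p = 0.00013), to 42.0% of the 2 d level. It fell by 1.08 at 8 d against 0 d (SE 0.17, limma adjusted p = 0.00016). The call at 8 d against 0 d ended without 8 d replicate 1, at -0.96, and after adding 16 or 64 to each signal, at -0.99 and -0.79. Adding 64 also ended the call at 8 d against 2 d, at -0.93. After median centring the 8 d changes were -1.35 against 2 d and -1.36 against 0 d.

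PRA1.H (AT4G27540) was the single member that rose. Its signal was 124, 125 and 181 in the 0 d arrays, 223, 215 and 175 in the 2 d arrays, and 281, 314 and 323 in the 8 d arrays. The 2 d arrays overlapped 0 d through 0 d replicate 3, and the 8 d arrays lay above all others. The rise at 8 d against 0 d was 1.11 (SE 0.16, limma adjusted p = 9.1e-05), a fold of 2.16. The changes of 0.52 at 2 d against 0 d (SE 0.16, limma adjusted p = 0.017) and 0.59 at 8 d against 2 d (SE 0.16, limma adjusted p = 0.0073) were short of the fold threshold. The 8 d rise was also short of it after median centring, at 0.84, after quantile normalization, at 0.68, and after adding 64 to each signal, at 0.84. At 2 d against 0 d the change was 0.18 after quantile normalization (limma adjusted p = 0.38) and 0.35 after median centring (limma adjusted p = 0.083). Without 0 d replicate 1 or 2, or 2 d replicate 1 or 2, its limma adjusted p was 0.066, 0.064, 0.052 and 0.053. Leaving out any other array kept it under 0.05.

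PRA1.E (AT1G08770) was lower at each later time. Its signal was 679, 618 and 677 in the 0 d arrays, 468, 560 and 499 in the 2 d arrays, and 414, 375 and 408 in the 8 d arrays. The 3 groups did not overlap. The change was -0.37 at 2 d against 0 d (SE 0.10, limma adjusted p = 0.010), -0.35 at 8 d against 2 d (SE 0.10, limma adjusted p = 0.012) and -0.72 at 8 d against 0 d (SE 0.10, limma adjusted p = 9.0e-05). The last was -0.99 after median centring, just short of the fold threshold. After centring on hybridisation controls the 2 d change was -0.17 (limma adjusted p = 0.23).

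PRA1.A1 (AT5G02040) had the smallest 8 d change of the 7. Its signal was 585, 581 and 628 in the 0 d arrays, 460, 470 and 504 in the 2 d arrays, and 504, 476 and 444 in the 8 d arrays. Both treated groups lay below 0 d and covered nearly the same range. The change was -0.32 at 2 d (SE 0.10, limma adjusted p = 0.014) and -0.33 at 8 d (SE 0.10, limma adjusted p = 0.0071) against 0 d, and -0.01 at 8 d against 2 d (95% interval -0.22 to 0.20). After centring on hybridisation controls the 2 d change was -0.12 (limma adjusted p = 0.30).

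PRA1.G2 (AT5G56230) gave the lowest signals of its own at 8 d. These were 131, 161 and 130 in the 0 d arrays, 111, 105 and 103 in the 2 d arrays, and 90.6, 102 and 78.7 in the 8 d arrays. The 3 groups did not overlap, though 2 d and 8 d were separated by less than 1 unit of signal. The change was -0.40 at 2 d (SE 0.13, limma adjusted p = 0.019) and -0.64 at 8 d (SE 0.13, limma adjusted p = 0.00080) against 0 d. From 2 d to 8 d it was -0.24 (95% interval -0.52 to 0.05). Detection calls were not used here, so whether these signals lie above background was not tested. With quantile normalization the change was -0.82 at 2 d and -0.92 at 8 d against 0 d. At 2 d it was -0.20 after centring on hybridisation controls (limma adjusted p = 0.23) and -0.26 after adding 64 to each signal.

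Counted over the 7, 1 fell and none rose at 2 d against 0 d, in a table where 14.9% of all probe sets were called, 5.20% lower and 9.75% higher. Of the 7, 2 fell and 1 rose at 8 d against 0 d, where 43.5% were called, 18.1% lower and 25.4% higher. Another comparison, 8 d against 2 d, had 1 fall and no rise, where 22.1% were called, 14.7% lower and 7.36% higher. Such counts over 7 probe sets are near the background and are no result about the family. The split of all calls depended on the scaling: the share that were higher was 65.2% at 2 d and 58.3% at 8 d against 0 d, and became 46.7% and 45.8% after quantile normalization, 48.1% and 40.5% after median centring, and 81.2% at 2 d after centring on hybridisation controls. Without the fold threshold, 5 of 7 were lower and 1 higher at 2 d against 0 d, where 23.4% of all probe sets were lower and 40.1% higher. After centring on hybridisation controls that 2 d count was 2 of 7 lower, PRA1.B4 and PRA1.B6, and 1 higher, where 13.4% were lower and 51.7% higher. It was 5 lower and 0 higher after median centring, where 31.3% of all probe sets were lower and 28.4% higher. Quantile normalization also gave 5 lower and 0 higher, where 26.4% were lower and 27.3% higher. Still without the fold threshold, 6 of 7 were lower and 1 higher at 8 d against 0 d, where 35.8% were lower and 54.3% higher, and 2 of 7 were lower and 1 higher at 8 d against 2 d, where 29.9% were lower and 46.6% higher. After median centring the count at 8 d against 0 d was the same, where 40.4% were lower and 43.4% higher. At 8 d against 2 d it was then 3 lower and 1 higher, where 32.2% were lower and 37.4% higher. The median change of the 7 was -0.37 at 2 d and -0.72 at 8 d against 0 d, beside 0.19 and 0.40 over all probe sets, and -0.16 at 8 d against 2 d, beside 0.26. The comparisons with 0 d share the 0 d arrays and are not independent of each other. The groups did not overlap for 5, 7 and 4 of the 7 at 2 d against 0 d, 8 d against 0 d and 8 d against 2 d, where 70.4%, 91.9% and 78.7% of all probe sets had no overlap.

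**Figure D2:**
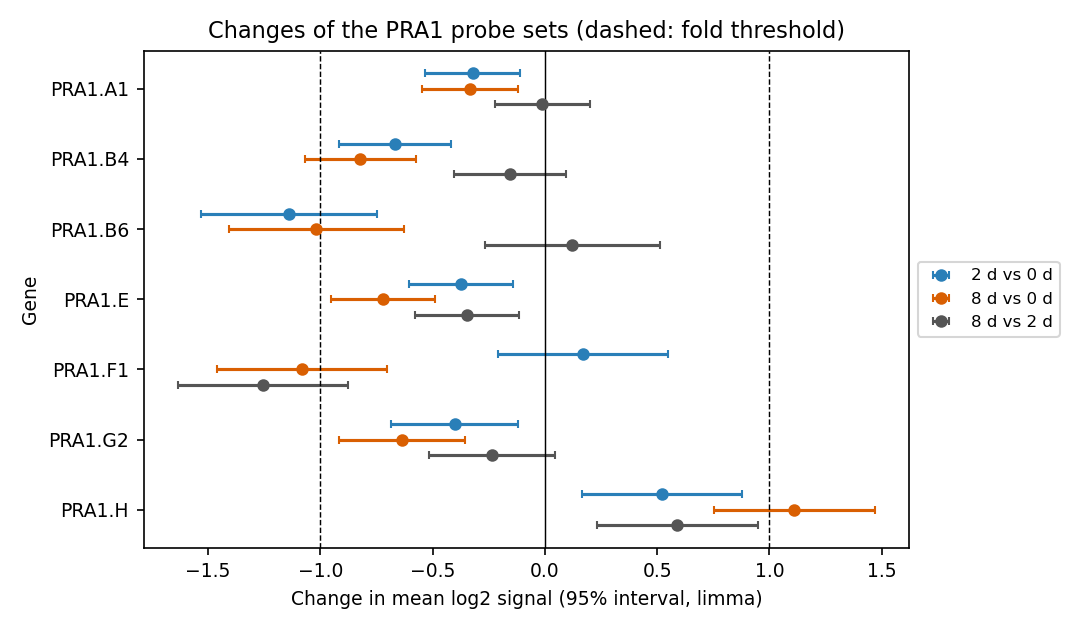
Change in mean log2 signal (x axis) of each PRA1 probe set in the 3 comparisons, as points with 95% intervals from limma; dashed lines mark a log2 change of 1 either way. PRA1.F1 lies at 0.17 at 2 d and at -1.08 at 8 d against 0 d, and PRA1.H is the single gene to the right of the upper dashed line, at 1.11.

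Few neighbours in the order of the members' changes were more than 2 SE apart. The SE of a difference treats the probe sets as independent, though all were read on the same arrays. Only neighbours were compared, so members further apart in the order may differ by more than 2 SE. At 2 d against 0 d the order from the lowest change was PRA1.B6, PRA1.B4, PRA1.G2, PRA1.E, PRA1.A1, PRA1.F1 and PRA1.H. Neighbours in it differed by more than 2 SE between PRA1.B6 and PRA1.B4, and between PRA1.A1 and PRA1.F1, which were 0.49 apart (SE 0.20). At 8 d against 0 d the order was PRA1.F1, PRA1.B6, PRA1.B4, PRA1.E, PRA1.G2, PRA1.A1 and PRA1.H. There the one neighbouring pair beyond 2 SE was PRA1.A1 and PRA1.H, 1.44 apart (SE 0.19). PRA1.F1 and PRA1.E were the one such pair at 8 d against 2 d, 0.91 apart (SE 0.20).

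The plot of 5 scalings shows that PRA1.F1 at 2 d changed sign, from 0.17 as deposited to -0.11 after quantile normalization and -0.0031 after median centring. The sign of PRA1.B6 at 8 d against 2 d also changed, to -0.011 after quantile normalization and -0.0010 after centring on hybridisation controls. For the other members the sign was the same under the 5 scalings in all 3 comparisons.

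**Figure D3:**
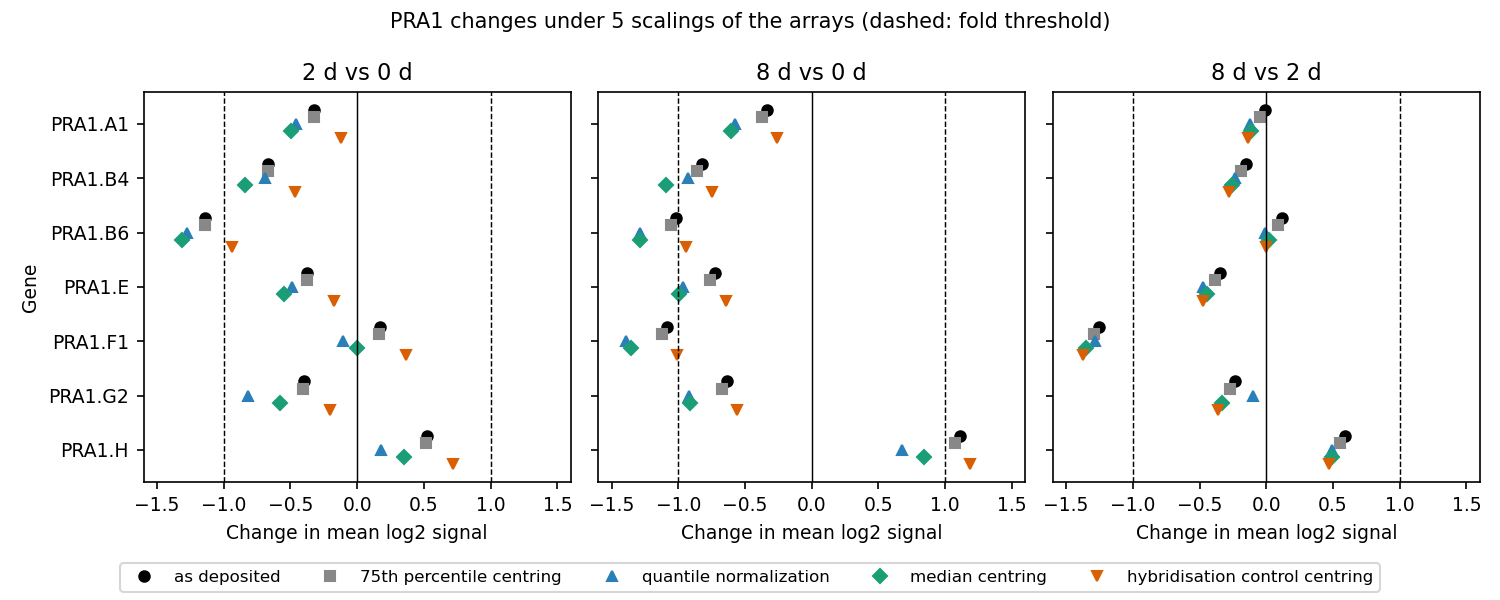
Change in mean log2 signal (x axis) of the 7 PRA1 genes in 3 comparisons, with the signals as deposited and after 4 other scalings of the arrays (symbols); dashed lines mark the fold threshold. Median centring puts PRA1.B4 past the threshold at 8 d against 0 d (-1.10) and PRA1.H short of it (0.84).

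PRA7 and PRA8, of the same subfamily as PRA1.F1, are held under other symbols. PRA7 (AT1G55190) had a signal of 859, 893 and 959 in the 0 d arrays, 546, 504 and 477 in the 2 d arrays, and 429, 351 and 375 in the 8 d arrays. The 3 groups did not overlap. PRA7 fell by 1.23 at 8 d against 0 d (SE 0.11, limma adjusted p = 3.2e-06) and was at -0.83 at 2 d against 0 d (SE 0.11) and -0.40 at 8 d against 2 d (SE 0.11). After median centring PRA7 was at -1.51 at 8 d and -1.002 at 2 d against 0 d, and the 2 d change was then called (limma adjusted p = 5.9e-05). Under every other alternative that kept the fold threshold, PRA7 was called at 8 d against 0 d only. The smallest such fall was -1.11, after adding 64 to each signal. PRA8 (AT3G13720) had 1519, 1326 and 1603 in the 0 d arrays, 1115, 1408 and 1426 in the 2 d arrays, and 850, 867 and 1051 in the 8 d arrays. Its 0 d and 2 d arrays overlapped, and its 8 d arrays lay below both. PRA8 was at -0.18 at 2 d against 0 d (SE 0.14), -0.51 at 8 d against 2 d (SE 0.14) and -0.69 at 8 d against 0 d (SE 0.14), none of them called. PRA8 was not called under any of these alternatives either. Its change at 2 d against 0 d was 0.02 after centring on hybridisation controls.

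Other vesicle traffic genes came from 6 lists of 213 loci, of which 19 were measured with a name. None was called in any comparison by limma; at an adjusted p under 0.05 with no fold threshold, 4 were higher and 5 lower at 2 d against 0 d, 12 higher and 2 lower at 8 d against 0 d, and 10 higher and 1 lower at 8 d against 2 d. Over all probe sets 14.9%, 43.5% and 22.1% were called in these comparisons, and by p alone 40.1%, 54.3% and 46.6% were higher and 23.4%, 35.8% and 29.9% lower. Their median change was 0.02 at 2 d and 0.37 at 8 d against 0 d, and 0.32 at 8 d against 2 d. Of the Rab GTPases, the partners of PRA1 proteins, only 2 of 57 were measured. ARA6 (RABF1), a Rab of endosomes found in plants, was at -0.32 at 2 d (SE 0.09) and -0.15 at 8 d (SE 0.09) against 0 d, and AT5G59840 at -0.02 (SE 0.11) and 0.37 (SE 0.11). No gene of the list of Rab carriers and escort proteins, or of the list of vacuolar sorting receptors and retromer, was measured with a name.

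SNAREs, which fuse vesicles with their target membrane, had 4 of 57 measured. SEC22, of the endoplasmic reticulum to Golgi step, was at 0.24 at 2 d (SE 0.10) and 0.28 at 8 d (SE 0.10) against 0 d, and YKT61 at -0.26 (SE 0.12) and -0.40 (SE 0.12). AT3G55600 was at -0.34 (SE 0.11) and -0.02 (SE 0.11), and AT4G14600 at -0.38 (SE 0.21) and 0.56 (SE 0.21), at the same times against 0 d. At 8 d against 2 d AT4G14600 was at 0.94 (SE 0.21, limma adjusted p = 0.0028), short of the fold threshold. The median of the 4 was -0.30 at 2 d and 0.13 at 8 d against 0 d, and 0.18 at 8 d against 2 d. The coat and ARF list had 11 of 47 measured, with a median of 0.20 at 2 d and 0.46 at 8 d against 0 d. At 8 d its values ran from -0.95 for AT2G34840 (SE 0.14) to 0.82 for AT2G21630 (SE 0.19). Of the exocyst, the complex that tethers secretory vesicles to the plasma membrane, 2 of 32 were measured. SEC5A was at 0.37 at 2 d (SE 0.11) and 0.44 at 8 d (SE 0.11), and SEC15A at 0.25 (SE 0.12) and 0.49 (SE 0.12), against 0 d.

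**Figure D4:**
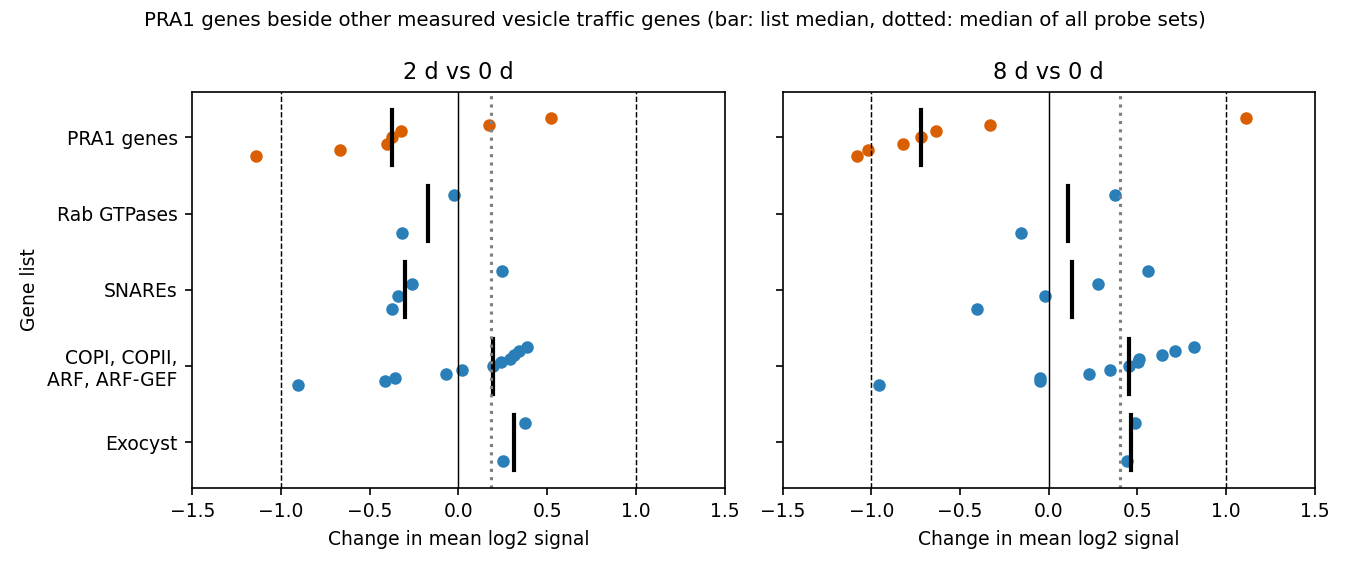
Change in mean log2 signal (x axis) at 2 d and 8 d against 0 d for the PRA1 genes and the measured genes of 4 other vesicle traffic lists, 1 point per gene. Thick bars are list medians, dotted lines the median of all probe sets and dashed lines the fold threshold. At 8 d the PRA1 median is -0.72, beside 0.11 for Rab GTPases, 0.13 for SNAREs, 0.46 for the coat and ARF list and 0.46 for the exocyst.

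The profiles closest to each member were sought among 5459 other named genes by Pearson correlation of log2 signal over the 9 arrays, which share their time points, so that r describes likeness only. For PRA1.F1 they were AT1G50020 (r = 0.998), at 0.14 at 2 d and -1.21 at 8 d against 0 d, and AT4G18740 (r = 0.997), at 0.20 and -1.87. PRA1.E was closest to TUB6, a beta-tubulin (r = 0.993), at -0.28 and -0.62, and to AT1G14120 (r = 0.993), whose changes of -1.85 and -3.53 were larger. The nearest to PRA1.A1 were AT5G64400 (r = 0.990), at -0.40 and -0.37, and AT1G31300 (r = 0.987), at -0.34 and -0.37. PRA1.B4 was nearest to AT4G30060 (r = 0.986), at -1.06 and -1.48, and AT5G03030 (r = 0.984), at -0.72 and -0.87. Beside PRA1.B6 stood AT2G01540 (r = 0.971), at -1.45 and -1.63, and AT3G07950 (r = 0.971), at -0.28 and -0.29. PRA1.H had AT1G27090 (r = 0.983), at 0.34 and 0.71, and AT3G02710 (r = 0.983), at 0.34 and 0.84. PRA1.G2 had the loosest matches, the plastid gene rps15 (r = 0.965), at -0.77 and -1.28, and UBC19, a ubiquitin-conjugating enzyme (r = 0.960), at -0.24 and -0.45. No PRA1 gene was among the genes searched, and no vesicle traffic gene of the lists was among these 14 matches. Only 19 genes of those lists were among the 5459 searched, so their absence is no result about the PRA1 genes.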

How the data were processed

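The authors' deposited table gives one intensity per probe set, on a linear scale. MAS5 appears in the submitters' processing notes. Its scaling and version, and the choice of probe sets for the table, were not given in the sources used here. The labels name both Cy3 and biotinylated cRNA. Groups and replicate numbers came from sample titles. The 23 control probe sets were left out, a floor of 1 was set (0 values lay under it) and signals were log2-transformed with no rescaling. Using limma 3.58.1 (R 4.3.3; lmFit, then eBayes), 1 mean per time point was fitted on the 9 arrays together, and two-sided p-values were adjusted by Benjamini-Hochberg over 10343 probe sets.

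Names came from the array annotation, updated by gene ID through the reference gene table (TAIR10.1): 5521 probe sets have 1 gene, 214 several and 4608 none. Named were all PRA1 probe sets, the called genes of the traffic lists (there were 0) and the 2 nearest profiles per member. PRA7, PRA8 and the uncalled traffic genes were named, and PRA7 and PRA8 put through the alternatives, after values were seen. A gene with several probe sets had the brightest in list counts. The members and lists were chosen with earlier results of these data known. The fit was tested on simulated data with planted changes.

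Alternatives were other scalings (quantile; centring on each array's median, 75th percentile or 6 hybridisation controls), an offset of 16 or 64, removal of the dimmest 40%, a trended robust prior, fits of single pairs of groups, array weights, a replicate block, removal of each array and no fold threshold. Background correction and slide could not be varied. The number of arrays limits the precision.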

Additional observations from a re-analysis of the deposited data

How the results depend on the processing

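The replicate numbers were not taken to pair the arrays, because no label says that they mark a shared culture. Same-numbered arrays' deviations correlated above 0.1 in 2 of 9 pairs (from -0.09 to 0.23). Differently numbered arrays ran from -0.27 to 0.23, so these correlations do not decide whether arrays were paired. With the replicate block 1, 3 and 1 of the 7 PRA1 probe sets were called at 2 d against 0 d, 8 d against 0 d and 8 d against 2 d, as without it. At 2 d against 0 d the count of 1 became 0 after centring on hybridisation controls or adding 64 to each signal, and 6 without the fold threshold. At 8 d against 0 d the count of 3 became 1 after adding 16 to each signal, 0 after adding 64, 1 without the dimmest 40% of probe sets, which removes PRA1.F1, PRA1.G2 and PRA1.H, and 7 without the fold threshold. That count was 2 after quantile normalization, which lost PRA1.H, and 2 after centring on hybridisation controls, which lost PRA1.B6. Median centring kept 3, with PRA1.B4 in place of PRA1.H. At 8 d against 2 d the count of 1 became 0 after adding 64 or without the dimmest 40%, and 3 without the fold threshold. Leaving out each array in turn gave 0 to 1, 2 to 3 and 1 to 1 called. Of 432 single-gene values under these alternatives, 395 kept their sign and their side of the threshold, 15 lost the call, 12 gained it and 10 changed sign. For many of these the log2 change was fixed by construction and only the p-value could move. That holds for the trended prior, single pairs of groups, the replicate block and removal of the dimmest 40%. It also holds where the removed array was of a group not compared. With no fold threshold neither the change nor the p-value could move, only the call. All gains but PRA1.B4 at 8 d against 0 d after median centring came from lifting the fold threshold. None of those that changed sign was called. They were PRA1.F1 at 2 d against 0 d after quantile normalization (-0.11) and median centring (-0.0031), and at 8 d against 2 d PRA1.A1 with array weights (0.0047), without 2 d replicate 3 (0.027) and without 8 d replicate 3 (0.036; -0.055 to 0.036 over arrays left out), and PRA1.B6 after quantile normalization (-0.011), centring on hybridisation controls (-0.0010), with array weights (-0.016), without 2 d replicate 3 (-0.021) and without 8 d replicate 1 (-0.072; -0.072 to 0.24 over arrays left out). Except where probe sets were left out or the threshold was lifted, the cause was not tested. Signals near 100, as for PRA1.G2 and for PRA1.F1 at 8 d, limit how well a fold is known. The same limit applies to the rise of PRA1.H, whose 0 d arrays were at 124 to 181.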
